A study of Mus musculus with 11 samples.

Results

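A set of 10 genes that fat cells use to signal and to store fat were followed in RNA from the small intestine of mice: Adipoq, Lep, Retn, Cfd, Plin1, Plin4, Lipe, Lpl, Fabp4 and Car3. They are known hormones, lipid droplet proteins and lipid-handling enzymes of fat cells, and all 10 were found among 24294 gene symbols. RNA was sequenced from 11 libraries. Of these, 4 were labelled HLJDD, 4 HFD and 3 ND. HLJDD stands for Huang Lian Jiedu Decoction, a herbal mixture from traditional Chinese medicine, and the study's title places it in obese mice with disordered lipid metabolism. The abbreviations HFD and ND are not spelled out in the labels. Strain, genotype, sex, age, diet of the HLJDD mice, dose, duration and the sampled stretch of gut are not stated there either. Nothing says that the libraries come from different animals, and p-values measure the spread between libraries, part of which may be technical.

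Fat cells hold their fat as triglyceride in a large droplet coated by perilipins. Lipoprotein lipase on the walls of blood vessels frees fatty acids from circulating fat for uptake, and hormone-sensitive lipase inside the cell releases stored fat when it is needed. Fat cells also secrete hormones, among them leptin, which reports the size of the fat store to the brain, and adiponectin, which acts on liver and muscle. The gut wall itself holds few fat cells, whereas the mesentery, the sheet that carries vessels to the intestine, is rich in them.

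The levels are FPKM, fragments per kilobase of gene, scaled to the size of the library. This scaling does not correct for differences in what the libraries hold, such as the mitochondrial share. Levels compare between libraries only within that limit. A log2 change of HLJDD over ND, for example, is the mean log2(FPKM + 1) in HLJDD minus that in ND, and at low levels it understates the ratio of the FPKM values. The test was limma over the 10764 genes that reached 1 FPKM in 3 or more of the 11 libraries, and a gene was called at a Benjamini-Hochberg adjusted p under 0.05. All 10 genes passed that filter. Plin1 passed it through the HLJDD libraries alone, and Lep, Retn and Plin4 through HLJDD and HFD libraries, with no ND library at 1 FPKM for any of these 4. In bulk RNA, more fat cells in a sample and more of a message per fat cell cannot be told apart.

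The libraries held 30101888 to 37943272 reads in genes. The mitochondrial share was 40.7% in HLJDD replicate 2, 32.4% in HFD replicate 1 and 10.4% to 19.3% in the other libraries. The 8 epithelium markers summed to 4245 to 6142 FPKM in HLJDD, 4566 to 6546 FPKM in HFD and 5532 to 5840 FPKM in ND, so the labelled tissue had its epithelial messages. Markers of the stretch of gut moved with the groups. The 10 distal markers summed to 378 to 746 FPKM in HLJDD and 398 to 618 FPKM in HFD, against 1706 to 11990 FPKM in ND, so a difference from ND by group and one by sampled stretch cannot be told apart. Within ND, replicate 3 had the lowest distal sum, and it also had the lowest level of 9 of the 10 genes, the exception being Lipe. That library was also lowest of ND in summed smooth muscle, mesothelium, stroma and blood endothelium markers, and highest in summed skeletal muscle and proximal gut markers. This rests on 1 library, and the part of the sampled stretch in it was not tested.

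RefSeq gave promoter windows (250 bases before to 50 bases after a transcript start, build GRCm38.p6) for 7 of the 10 genes. For Plin1, Plin4 and Lipe the starts used lie inside the gene's full span, and Lipe had windows at different starts. Windows of 3 are shown, those of Adipoq and of the genes whose level relative to Adipoq stood lowest (Lep) and highest (Cfd) in ND against the other groups. Capitals mark TTGCGCAA, a motif of the C/EBP factors, which drive fat cell differentiation.
Lep (chr6:29059971-29060270, plus strand): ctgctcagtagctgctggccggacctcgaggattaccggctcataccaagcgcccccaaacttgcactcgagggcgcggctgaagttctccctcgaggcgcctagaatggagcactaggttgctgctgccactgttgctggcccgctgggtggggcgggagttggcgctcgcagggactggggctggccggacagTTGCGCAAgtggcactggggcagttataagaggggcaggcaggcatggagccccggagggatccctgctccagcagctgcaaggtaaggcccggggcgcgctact
Adipoq (chr16:23146286-23146585, plus strand): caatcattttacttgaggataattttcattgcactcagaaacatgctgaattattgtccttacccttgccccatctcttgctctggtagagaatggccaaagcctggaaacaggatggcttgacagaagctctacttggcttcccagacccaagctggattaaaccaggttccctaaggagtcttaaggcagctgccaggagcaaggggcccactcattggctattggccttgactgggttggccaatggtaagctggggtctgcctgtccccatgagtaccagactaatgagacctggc
Cfd (chr10:79890603-79890902, plus strand): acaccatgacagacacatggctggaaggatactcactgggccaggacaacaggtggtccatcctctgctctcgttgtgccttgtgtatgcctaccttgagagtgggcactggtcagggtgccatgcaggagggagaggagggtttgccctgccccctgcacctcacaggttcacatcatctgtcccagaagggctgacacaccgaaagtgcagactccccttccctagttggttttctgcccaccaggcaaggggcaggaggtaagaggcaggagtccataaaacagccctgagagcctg

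The Lep window held TTGCGCAA with its first base at position -55, counted back from the start of the gene. The motif reads the same on both strands, and 0.183% of 32851 promoter windows held it. The looser form TTGCNNAA, which the Lep site also matches, was held by 10.8% of windows. Plin1 had it at -187 and -58, counted from the start that its window uses. The Adipoq and Cfd windows held neither of these. No window of the 7 genes held the direct repeat bound by PPAR with RXR (0.0396% of windows), its single site AGGTCA (16.3%) or the TATA box letters TATAAA (13.6%), on either strand. These are matches of letters only.

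Among the secreted products, adiponectin, leptin and resistin messages were higher in HLJDD than in ND in every library, and the complement protease Cfd was not called in any comparison. Adipoq (chromosome 16, 23146536 to 23157968) encodes adiponectin. It stood at 13.3, 20.0, 15.2 and 7.17 FPKM in HLJDD replicates 1 to 4, at 1.38, 8.22, 6.99 and 4.53 FPKM in HFD replicates 1 to 4, and at 2.05, 1.73 and 1.16 FPKM in ND replicates 1 to 3. All HLJDD libraries lay above all ND libraries, and the HFD libraries did so except replicate 1. The group means were 13.9 ± 5.30 FPKM in HLJDD (SD, n = 4), 5.28 ± 3.02 FPKM in HFD (SD, n = 4) and 1.65 ± 0.452 FPKM in ND (SD, n = 3). HLJDD over ND had a log2 change of 2.43 (SE 0.42, limma adjusted p = 0.00354), and HFD over ND one of 1.09 (SE 0.42, limma adjusted p = 0.0878). Without HFD replicate 1 it was 1.5 (limma adjusted p = 0.0104), which is a call.

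Lep (chromosome 6, 29060221 to 29073876) encodes leptin. It stood at 3.86, 2.10, 6.37 and 1.66 FPKM in HLJDD, at 0.202, 1.26, 1.07 and 1.01 FPKM in HFD, and at 0.0436, 0.101 and 0.0331 FPKM in ND. The 3 groups did not overlap anywhere, and ND was close to silent, with 5, 12 and 4 reads in its 3 libraries. Counting error alone gave ND intervals (95%, exact Poisson) of 0.0141 to 0.102, 0.0519 to 0.176 and 0.00901 to 0.0846 FPKM. HFD replicate 1, the lowest of its group, had 21 reads and an interval of 0.125 to 0.31 FPKM, which overlaps that of ND replicate 2. The ratio of mean FPKM was 59.2 for HLJDD over ND and 15.1 for HFD over ND. In the test, the log2 change of HLJDD over ND was 1.97 (SE 0.31, limma adjusted p = 0.00233) and that of HFD over ND was 0.79 (SE 0.31, limma adjusted p = 0.0939). The HFD change passed the threshold in 6 of the alternatives, among them a pseudocount of 0.1 (2.45, limma adjusted p = 0.0135) and limma-voom on recovered reads (3.70, adjusted p = 0.0432).

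Retn (chromosome 8, 3655770 to 3659818) encodes resistin, a hormone that in mice comes from fat cells. It stood at 5.91, 8.88, 8.89 and 2.40 FPKM in HLJDD, at 0.708, 2.62, 1.71 and 0.813 FPKM in HFD, and at 0.529, 0.975 and 0.502 FPKM in ND. All HLJDD libraries were above all ND libraries, while HFD and ND overlapped. For HLJDD over ND the log2 change was 2.06 (SE 0.36, limma adjusted p = 0.00373), and for HFD over ND it was 0.50 (SE 0.36, limma adjusted p = 0.309). Cfd (chromosome 10, 79890853 to 79892655) encodes adipsin, the protease that starts the alternative complement pathway. It stood at 7.55, 36.6, 11.2 and 5.49 FPKM in HLJDD, at 1.74, 9.48, 4.81 and 2.76 FPKM in HFD, and at 8.83, 10.03 and 7.97 FPKM in ND. HLJDD replicate 2 was far above the rest, and 3 of the HFD libraries lay below all ND libraries. HFD over ND had a log2 change of -0.99 (SE 0.54, limma adjusted p = 0.198). HLJDD over ND had one of 0.35 (SE 0.54, limma adjusted p = 0.70), and it turned to -0.17 without HLJDD replicate 2 (limma adjusted p = 0.827).

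**Figure D1:**
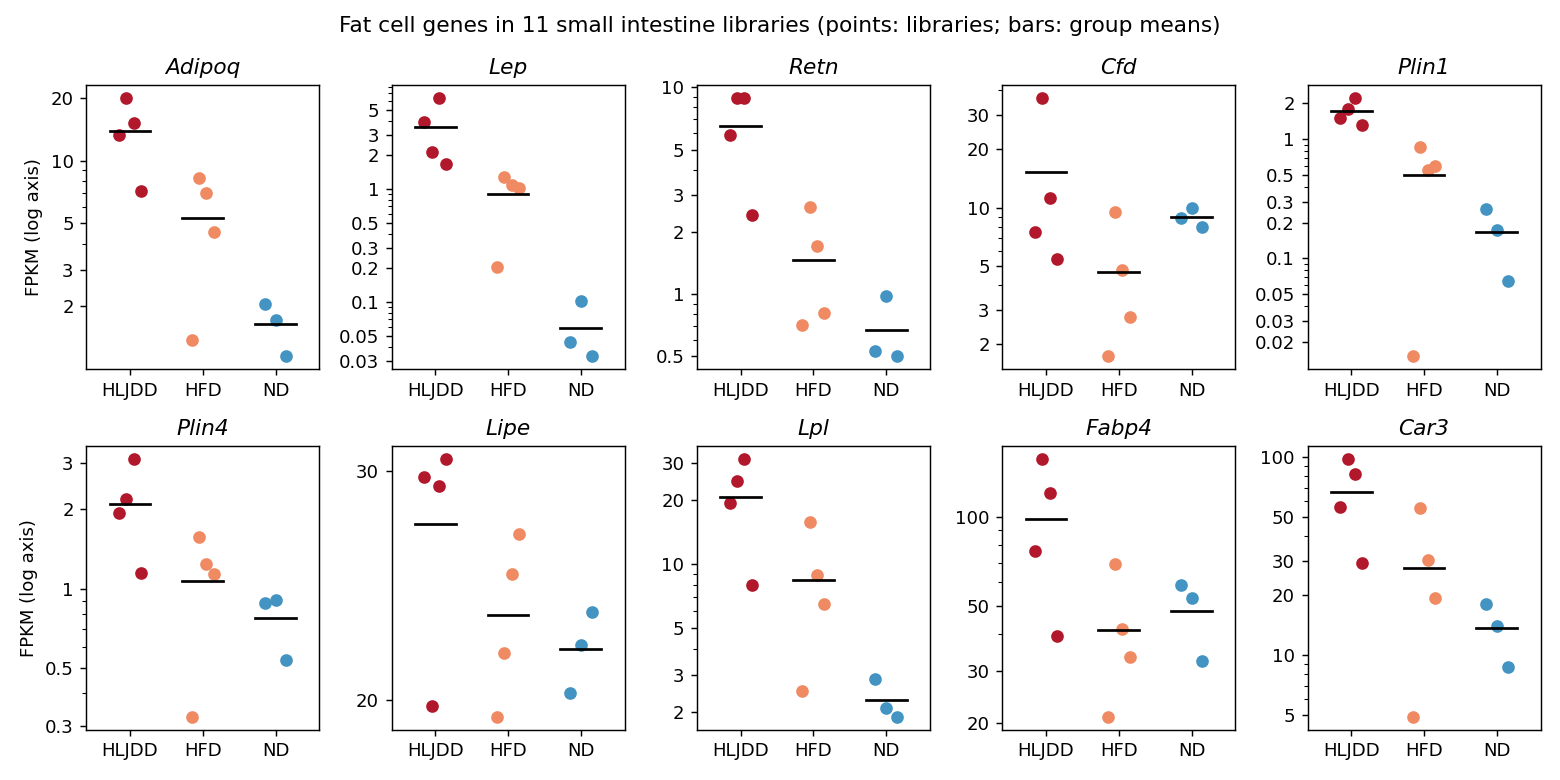
FPKM of each of the 10 genes (log axis, its range set per panel) in the HLJDD (n = 4), HFD (n = 4) and ND (n = 3) libraries; points are libraries and bars are group means. For Lep the 3 groups are fully separate, with ND at 0.0331 to 0.101 FPKM, whereas Cfd and Fabp4 in ND sit within the range of the other groups.

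Of the droplet coat proteins, Plin1 rose in HLJDD over ND and Plin4 did not pass the test. Plin1 (chromosome 7, 79721164 to 79732904) encodes perilipin 1, the coat that controls access of lipases to stored fat. It stood at 1.52, 1.79, 2.22 and 1.32 FPKM in HLJDD, at 0.0152, 0.861, 0.547 and 0.598 FPKM in HFD, and at 0.261, 0.172 and 0.0652 FPKM in ND. HLJDD was above both other groups in every library. HFD replicate 1 rested on 1 read, with a counting interval of 0.000385 to 0.0847 FPKM. The other HFD libraries, with 40 to 60 reads each, were above all ND libraries. HLJDD over ND had a log2 change of 1.21 (SE 0.19, limma adjusted p = 0.00233). That of HFD over ND was 0.34 (SE 0.19, limma adjusted p = 0.214), and 0.52 without HFD replicate 1 (limma adjusted p = 0.0469).

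Plin4 (chromosome 17, 56100587 to 56109948) encodes perilipin 4, which coats small droplets as they form. It stood at 1.94, 2.18, 3.12 and 1.15 FPKM in HLJDD, at 0.326, 1.57, 1.24 and 1.14 FPKM in HFD, and at 0.883, 0.907 and 0.535 FPKM in ND. HLJDD did not overlap ND, but the gap between their nearest libraries was small. For HLJDD over ND the log2 change was 0.77 (SE 0.24, limma adjusted p = 0.0599), and it passed the threshold without HLJDD replicate 4 (limma adjusted p = 0.0393) or without HFD replicate 1 (limma adjusted p = 0.0224). That of HFD over ND was 0.18 (SE 0.24, limma adjusted p = 0.584).

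The genes of fatty acid release and handling split. Lpl and Car3 rose in HLJDD over ND, while Lipe and Fabp4 did not pass the test. Lipe and Fabp4 are expressed outside fat cells too, as is Car3, and the part of this in these results was not tested. Lpl (chromosome 8, 68880555 to 68906932) encodes lipoprotein lipase. It stood at 19.4, 24.6, 31.5 and 7.99 FPKM in HLJDD, at 2.51, 15.8, 8.90 and 6.46 FPKM in HFD, and at 2.86, 2.11 and 1.91 FPKM in ND. Every HLJDD library, and every HFD library but replicate 1, was above ND. The log2 change of HLJDD over ND was 2.6 (SE 0.49, limma adjusted p = 0.00555). That of HFD over ND was 1.31 (SE 0.49, limma adjusted p = 0.0799), and 1.72 without HFD replicate 1 (limma adjusted p = 0.0229).

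Car3 (chromosome 3, 14863538 to 14872381) encodes a carbonic anhydrase that is abundant in fat cells and slow muscle fibres. It stood at 56.0, 98.1, 82.5 and 29.1 FPKM in HLJDD, at 4.88, 55.5, 30.1 and 19.4 FPKM in HFD, and at 18.1, 14.1 and 8.76 FPKM in ND. HLJDD was above ND throughout, and HFD replicate 1 was below all ND libraries. HLJDD over ND had a log2 change of 2.12 (SE 0.63, limma adjusted p = 0.0476). This call was lost in 12 of the 20 alternatives, with limma adjusted p of 0.00781 to 0.133 over all settings. Leaving out a single library ended it for HLJDD replicates 1, 2 and 3 (limma adjusted p = 0.0852, 0.0938 and 0.0813), HFD replicates 3 and 4 (0.0604 and 0.055) and ND replicates 1, 2 and 3 (0.113, 0.133 and 0.131). The log2 change of HFD over ND was 0.60 (SE 0.63, limma adjusted p = 0.484).

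Fabp4 (chromosome 3, 10204342 to 10208616) encodes the fatty acid carrier of fat cells, which macrophages and small vessels also make. It stood at 76.4, 157.6, 120.2 and 39.6 FPKM in HLJDD, at 21.0, 69.4, 41.5 and 33.5 FPKM in HFD, and at 58.7, 53.2 and 32.6 FPKM in ND, and all groups overlapped. Its log2 change was 0.89 for HLJDD over ND (SE 0.45, limma adjusted p = 0.221) and -0.30 for HFD over ND (SE 0.45, limma adjusted p = 0.642). Lipe (chromosome 7, 25379527 to 25398486) encodes hormone-sensitive lipase. It stood at 29.7, 19.8, 29.2 and 30.6 FPKM in HLJDD, at 19.4, 21.7, 25 and 26.8 FPKM in HFD, and at 20.2, 22.1 and 23.4 FPKM in ND. It was the most even of the 10 genes across the libraries. Its log2 change was 0.29 for HLJDD over ND (SE 0.17, limma adjusted p = 0.284) and 0.08 for HFD over ND (SE 0.17, limma adjusted p = 0.756). Without HLJDD replicate 2 the first of these was 0.43 (limma adjusted p = 0.0457).

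Counted over the set, 6 of the 10 genes rose in HLJDD over ND and none fell: Adipoq, Lep, Retn, Plin1, Lpl and Car3. Over all 10764 genes tested, 4.1% were called higher, 7.79% lower and 11.9% in either direction. All 10 had a change above 0, as had 33.8% of all genes. The HLJDD and ND libraries did not overlap for 7 of the 10, all higher, against 8.3% of all genes. Plin1 passed the filter through HLJDD libraries alone, and Lep, Retn and Plin4 had no ND library at 1 FPKM. High HLJDD levels thus helped to bring these genes into the test, so their place in these counts is not separate support. The median log2 change was 1.59 for the 10 genes and -0.13 for all genes. The calls of Adipoq, Lep, Retn, Plin1 and Lpl held in every alternative that tested them, including each one that left out a library. The median-ratio scaling, which gives the typical gene the same level in every library, moved the median of all genes to 0.02 and that of the 10 genes to 1.61.

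Between HLJDD and HFD no gene was called by limma (0.0% of 10764, 186 or 1.73% at an unadjusted p under 0.05), nor by limma-voom, so 0 of the 10 were called. All 10 had a higher mean in HLJDD than in HFD, as had 65.9% of all genes. At an unadjusted p under 0.05 there were 9 of the 10, all but Lipe, but these genes moved together from library to library and are not independent of each other. The limma adjusted p was 0.999 for each of them, and 0.133 to 1.0 over the alternatives. Lep and Plin1 did not overlap between HLJDD and HFD (0.483% of all genes were higher without overlap). Plin1 had passed the filter through HLJDD libraries alone. The log2 changes of HLJDD over HFD were 1.56 for Retn (SE 0.33), 1.52 for Car3 (SE 0.58), 1.34 for Adipoq (SE 0.39), 1.34 for Cfd (SE 0.50), 1.28 for Lpl (SE 0.45), 1.18 for Fabp4 (SE 0.42) and 1.18 for Lep (SE 0.29). They were 0.87 for Plin1 (SE 0.18), 0.59 for Plin4 (SE 0.23) and 0.21 for Lipe (SE 0.16). The ratio of mean FPKM was 4.45 for Retn, 3.94 for Lep and 3.39 for Plin1. The median log2 change was 1.23 for the 10 genes and 0.06 for all genes.

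Between HFD and ND 0 of the 10 genes were called, where 16.6% of all genes were, 5.06% higher and 11.5% lower. At an unadjusted p under 0.05 there were 3 of the 10 (Adipoq, Lep and Lpl), against 36.7% of all genes. Lep was the single gene of the 10 whose libraries did not overlap, against 9.57% of all genes higher without overlap. The median log2 change was 0.42 for the 10 genes and -0.21 for all genes, and 8 of the 10 had a change above 0, as had 29.3% of all genes. Without HFD replicate 1, 3 of the 10 were called higher (Adipoq, Plin1 and Lpl), where 475 of 10723 tested genes were. Without both libraries of highest mitochondrial share 4 of the 10 were, Lep being the fourth (limma adjusted p = 0.0317). In that fit 1007 of 10702 tested genes were called higher. HFD replicate 1 was the lowest library of its group for all 10 genes. Both comparisons with ND use the same 3 ND libraries, and both comparisons with HFD the same 4 HFD libraries, so they are not independent of each other.

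**Figure D2:**
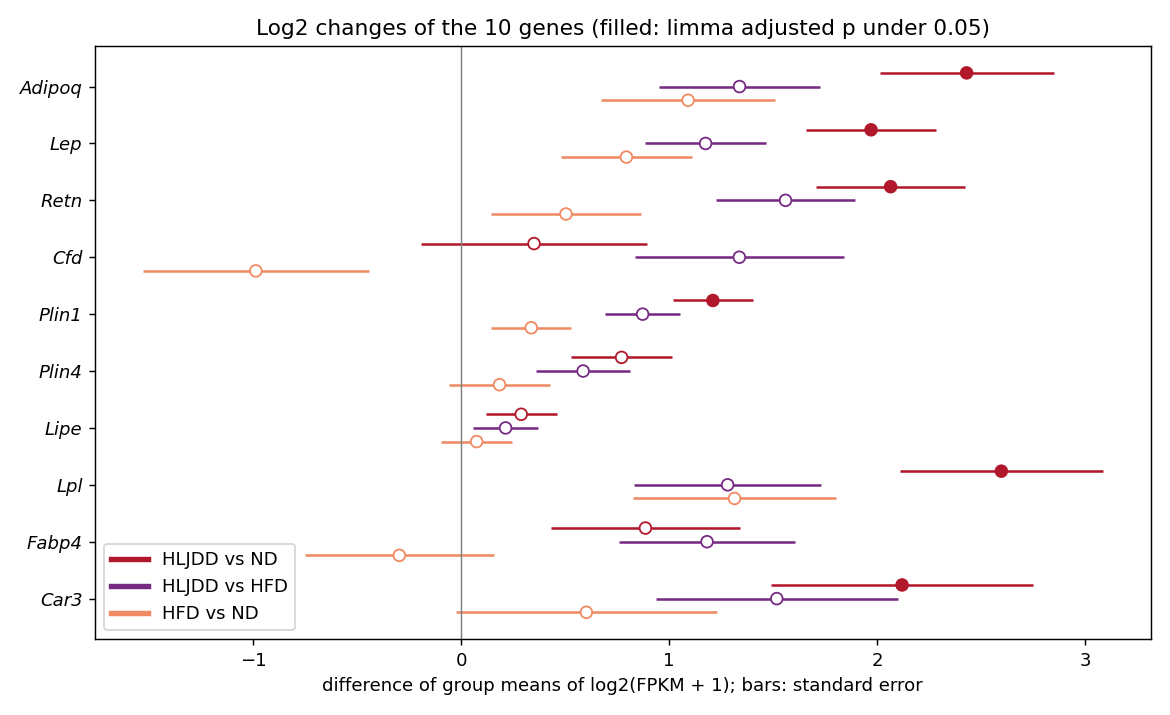
Difference between group means of log2(FPKM + 1) for the 10 genes in HLJDD vs ND, HLJDD vs HFD and HFD vs ND; points are estimates, bars are standard errors, and filled points have a limma adjusted p under 0.05. Filled points occur in HLJDD vs ND only, for 6 genes.

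The balance among the fat cell messages was set beside their level. Each gene was set over Adipoq in the same library, which removes any scaling of the whole library. These ratios were chosen after the values were seen and are given with no test. Lep over Adipoq was 0.29, 0.105, 0.42 and 0.232 in HLJDD and 0.147, 0.154, 0.154 and 0.224 in HFD, against 0.0213, 0.0582 and 0.0285 in ND. Both groups lay above ND in every library. Of 10732 genes, 0.0466% did so in HLJDD against ND and 0.177% in HFD against ND. Such shares are small in part because the mean of the divisor Adipoq was itself above that of ND in both groups. The ND ratios rest on 5, 12 and 4 Lep reads, and Lep entered the test with no ND library at 1 FPKM. Whether the separation exceeds counting error was not tested. HFD replicate 1 lay close to the rest of its group in this ratio although it was lowest in level. Lpl over Adipoq stayed within 1.11 to 2.08 in HLJDD, 1.27 to 1.92 in HFD and 1.22 to 1.65 in ND. Over the 11 libraries that is a 1.86-fold span, while Adipoq itself spanned 17.3-fold. Retn over Adipoq also overlapped between the groups (0.335 to 0.586 in HLJDD, 0.179 to 0.514 in HFD and 0.258 to 0.565 in ND), as did Plin1 over Adipoq.

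In the other direction, Cfd over Adipoq was 0.568 to 1.83 in HLJDD and 0.61 to 1.26 in HFD, against 4.31 to 6.88 in ND. Fabp4 over Adipoq was 5.52 to 7.92 in HLJDD and 5.94 to 15.3 in HFD, against 28.1 to 30.8 in ND. Car3 over Adipoq was 4.06 to 5.44 in HLJDD and 3.55 to 6.75 in HFD, against 7.56 to 8.84 in ND, and Plin4 over Adipoq was 0.109 to 0.205 in HLJDD and 0.177 to 0.251 in HFD, against 0.431 to 0.525 in ND. None of these 4 overlapped ND. Lower ratios to Adipoq were common, however. They were found without overlap for 95.8% of genes in HLJDD against ND and for 48.7% in HFD against ND, where the mean of the shared divisor Adipoq was above that of ND. Between HLJDD and HFD all 9 ratios overlapped, where 26.3% of genes had lower and 0.0% higher ratios without overlap.

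**Figure D3:**
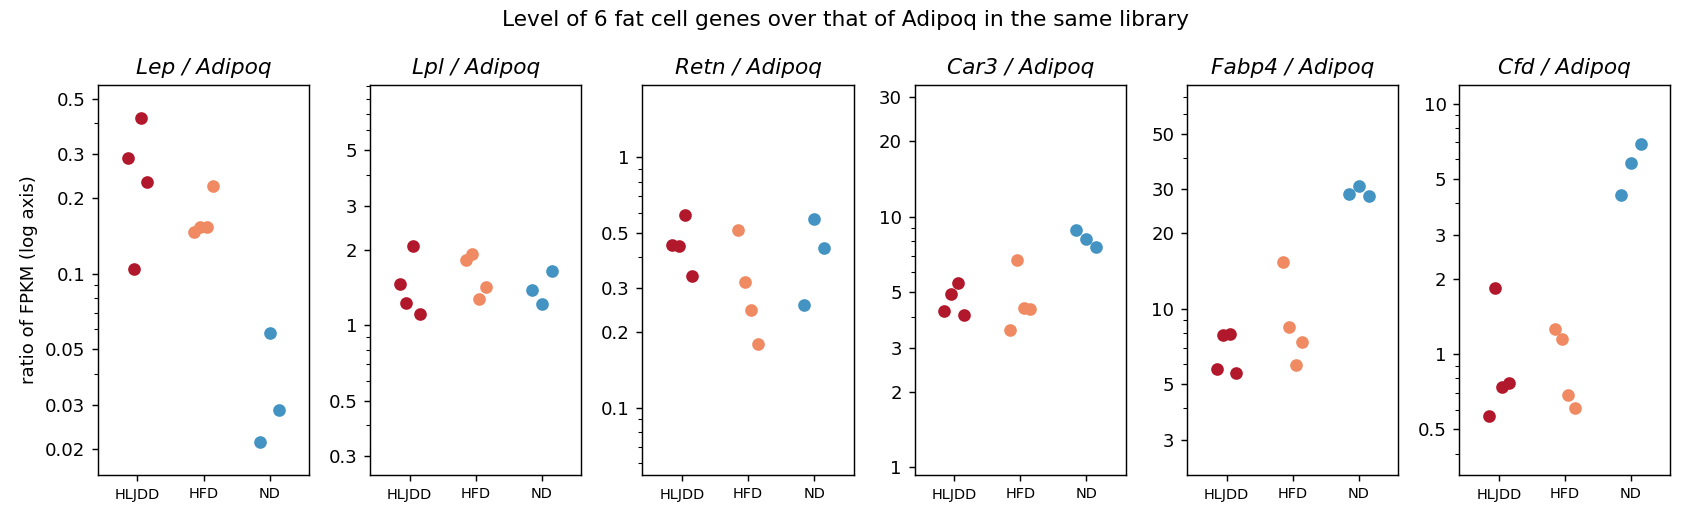
FPKM of Lep, Lpl, Retn, Car3, Fabp4 and Cfd divided by the FPKM of Adipoq in the same library (log axis, the same fold span in each panel) for HLJDD, HFD and ND; points are libraries. Lep over Adipoq is lowest in ND (0.0213 to 0.0582), Lpl over Adipoq overlaps between the 3 groups (1.11 to 2.08 over all libraries), and Cfd over Adipoq is highest in ND (4.31 to 6.88).

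Within groups, most of the 10 genes followed each other from library to library, as many other genes did. With group means removed, the correlation over the 11 libraries of each gene with the mean of the other 9 was 0.979 for Lpl, 0.974 for Plin4, 0.954 for Car3, 0.938 for Adipoq and 0.931 for Plin1. It was 0.88 for Fabp4, 0.83 for Retn, 0.73 for Lep and 0.661 for Cfd, and -0.12 for Lipe, which did not follow the rest. These are descriptions over libraries that share depth and mitochondrial share. Summed over the 10 genes, the level was 215.5, 371.6, 310.3 and 126.5 FPKM in HLJDD, 52.2, 186.5, 121.9 and 97.1 FPKM in HFD and 112.5, 105.4 and 76.9 FPKM in ND. The HLJDD libraries differed among themselves by more than the ND libraries did, and replicate 4 was the lowest of them for 9 of the 10 genes, Lipe being its highest.

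Outside the 10, the genes whose deviations within groups were most like theirs included Aoc3 (r = 0.98), Rpl14 (0.977), Ybx3, Phldb1, Cavin1, Tnfrsf11a, Slc2a4, Frrs1 and Dmwd (0.961), over the same 11 libraries. Aoc3 encodes an amine oxidase abundant on fat cells, Cavin1 a coat protein of caveolae and Slc2a4 the insulin-responsive glucose transporter GLUT4. After median-ratio scaling Aoc3, Frrs1 and Dmwd remained among the leading 10.

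Of 17 tested genes of 19 on a list of other fat cell genes, 8 rose in HLJDD over ND and none fell, and 3 rose in HFD over ND and none fell. Over all genes tested, 4.1% were called higher and 7.79% lower in HLJDD over ND, and 5.06% and 11.5% in HFD over ND. The same shares apply to the counts on the lists that follow. Between HLJDD and HFD none was called. The count in HLJDD over ND fell to 3 without HLJDD replicate 1, 4 without HLJDD replicate 3, 5 without HFD replicate 3, and 3, 2 and 5 without ND replicates 1, 2 and 3, and was 9 without both libraries of highest mitochondrial share. The median log2 change of the 17 was 0.65 for HLJDD over ND, 0.25 for HLJDD over HFD and 0.27 for HFD over ND. Cidec, a protein that fuses lipid droplets, stood at 81.5 ± 18.8 FPKM in HLJDD, 68.2 ± 13.9 FPKM in HFD and 22.2 ± 9.99 FPKM in ND (SD). Its log2 change over ND was 1.90 in HLJDD (SE 0.29, limma adjusted p = 0.00169) and 1.66 in HFD (SE 0.29, limma adjusted p = 0.00299). Pparg, the nuclear receptor that drives fat cell formation, changed by 1.15 in HLJDD (SE 0.21, limma adjusted p = 0.00487) and 1.19 in HFD (SE 0.21, limma adjusted p = 0.00335). Pck1, an enzyme of glycerol and glucose synthesis, changed by 1.97 in HFD over ND (SE 0.42, limma adjusted p = 0.00862, and 0.0552 without ND replicate 1). Enterocytes, the absorbing cells of the gut, also express Cidec, Pparg and Pck1.

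The remaining calls on that list were in HLJDD over ND. Rbp4, a retinol carrier that fat cells secrete, stood at 3.39 ± 1.33 FPKM in HLJDD, 1.81 ± 0.632 FPKM in HFD and 1.01 ± 0.0508 FPKM in ND (SD). Its log2 change over ND was 1.08 in HLJDD (SE 0.23, limma adjusted p = 0.0112, and 0.0551 and 0.0511 without ND replicates 1 and 2), against 0.45 in HFD (limma adjusted p = 0.172). Trarg1, a partner of GLUT4 transport, changed by 0.65 in HLJDD (SE 0.15, limma adjusted p = 0.0157, and 0.077 and 0.0526 without ND replicates 2 and 3) and by 0.21 in HFD (limma adjusted p = 0.311). Pck1 in HLJDD (limma adjusted p = 0.025), Thrsp (0.0382), Nnat (0.0392) and Adig (0.044), named after their values were seen, also passed. Each of these 4 calls was lost without ND replicate 1 (limma adjusted p of 0.0869 to 0.13) and without ND replicate 2 (0.0948 to 0.124). Nnat stood at 7.99 ± 5.41 FPKM in HLJDD, 2.34 ± 0.999 FPKM in HFD and 2.26 ± 0.792 FPKM in ND, and Adig at 1.65 ± 1.3 FPKM in HLJDD, 0.288 ± 0.134 FPKM in HFD and 0.263 ± 0.154 FPKM in ND (SD). Neither overlapped between HLJDD and HFD. No HFD or ND library of Trarg1 or Adig reached 1 FPKM, so both passed the filter through HLJDD libraries alone. Their place in the count of this list is thus not separate support.

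**Figure D4:**
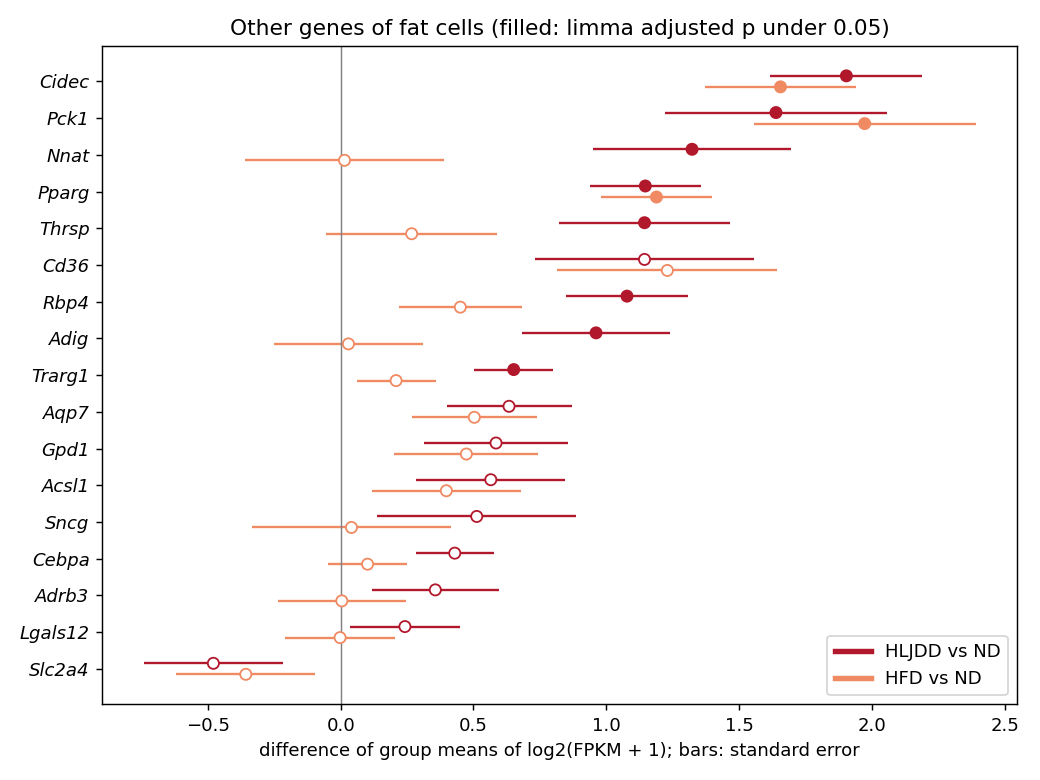
Difference between group means of log2(FPKM + 1) for the 17 tested genes of the list of other fat cell genes, in HLJDD vs ND and HFD vs ND; points are estimates, bars are standard errors, and filled points have a limma adjusted p under 0.05. Cidec, Pck1 and Pparg are filled in both comparisons, and 5 more genes (Nnat, Thrsp, Rbp4, Adig and Trarg1) are filled in HLJDD vs ND.

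Of 11 tested genes of triglyceride breakdown, G0s2 alone was called. It encodes an inhibitor of the lipase ATGL, and stood at 11.04 ± 4.47 FPKM in HLJDD, 10.7 ± 4.76 FPKM in HFD and 1.15 ± 0.674 FPKM in ND (SD). Its log2 change over ND was 2.45 in HLJDD (SE 0.39, limma adjusted p = 0.00236) and 2.35 in HFD (SE 0.39, limma adjusted p = 0.00255). Pnpla2, which encodes ATGL itself, stood at 42 ± 4.22 FPKM in HLJDD, 40.3 ± 2.89 FPKM in HFD and 38.7 ± 4.02 FPKM in ND. Of 8 tested partners of lipoprotein lipase, 3 were higher and 1 lower in each comparison with ND. Angptl4, an inhibitor of the enzyme, was the lower one, at 8.80 ± 2.08 FPKM in HLJDD, 6.67 ± 0.278 FPKM in HFD and 17.2 ± 5.64 FPKM in ND. Its log2 change over ND was -1.20 in HFD (SE 0.21, limma adjusted p = 0.00287) and -0.87 in HLJDD (SE 0.21, limma adjusted p = 0.0185). The HLJDD call was lost without ND replicate 2 (limma adjusted p = 0.0738), without ND replicate 3 (0.0661) and with median-ratio scaling (0.0691). Angptl8, another member of that family, changed by 1.04 in HLJDD (SE 0.21, limma adjusted p = 0.00755) and 1.03 in HFD (SE 0.21, limma adjusted p = 0.00654). The other genes called were Apoc2 and Apoc3, apolipoproteins that activate and inhibit the enzyme, whose calls were lost under several alternatives (limma adjusted p up to 0.157 for Apoc2 and 0.14 for Apoc3).

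Receptors showed no call. Of 5 genes of receptors for these hormones 3 were tested (Adipor1, Adipor2 and Cap1) and none passed in any comparison, while the leptin receptor gene Lepr reached at most 0.354 FPKM and Cdh13 at most 0.226 FPKM. Adipor2 stood at 109 ± 38.7 FPKM in HLJDD, 103.5 ± 20.1 FPKM in HFD and 82.96 ± 23.6 FPKM in ND (SD). The resistin-like gene Retnla stood at 9.003 ± 4.58 FPKM in HLJDD, 6.93 ± 4.30 FPKM in HFD and 6.23 ± 2.53 FPKM in ND, with all groups overlapping. Of the 11 tested droplet proteins outside the 10 genes, Cidec and Plin2 were called higher in both comparisons with ND. Plin2 had a log2 change of 0.97 in HLJDD (SE 0.27, limma adjusted p = 0.0383) and 0.92 in HFD (SE 0.27, limma adjusted p = 0.0389), calls that leaving out any 1 of the ND libraries ended (adjusted p of 0.0594 to 0.178). Ubxn8, which was lower in HFD than in ND, was also lost without any 1 of them (adjusted p of 0.0519 to 0.0978).

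Markers of other cells that could bring or share these messages were read beside them. Of 8 listed markers of brown fat, 6 were read, and no matching symbol was found for the others, Ucp1 and Zic1. Those read were near the floor apart from Cox7a1: Dio2, Elovl3, Cidea and Otop1 stayed at or under 0.0311, 0.0954, 0.422 and 0.0251 FPKM and Cox8b at or under 1.35 FPKM in all libraries. Cox7a1, a subunit of the respiratory chain, stood at 240.7 ± 35.1 FPKM in HLJDD, 250 ± 23.7 FPKM in HFD and 97.2 ± 25.6 FPKM in ND (SD), and was called higher in both comparisons with ND (limma adjusted p = 0.00139 and 0.000853). No gene of the 8 tested macrophage markers, 7 tested blood endothelium markers or 10 smooth muscle markers was called in any comparison. The 10 smooth muscle markers summed to 199.2 to 498.8 FPKM in HLJDD, 177.8 to 661.3 FPKM in HFD and 480.5 to 681.4 FPKM in ND, with median log2 changes over ND of -0.83 in HLJDD and -0.57 in HFD. The 11 macrophage markers summed to 27.5 to 105.2 FPKM in HLJDD, 40.9 to 94.8 FPKM in HFD and 31.6 to 38.3 FPKM in ND. The 11 blood endothelium markers summed to 8.61 to 36.3 FPKM in HLJDD, 12.96 to 19.7 FPKM in HFD and 12.7 to 21.2 FPKM in ND, with HLJDD replicate 2 the highest, the library that also led in Adipoq, Cfd, Fabp4 and Car3. The 10 markers of fat cell precursors and stroma summed to 81.4 to 190.6 FPKM in HLJDD and 81.4 to 179.8 FPKM in HFD, against 242.2 to 286.5 FPKM in ND, and 1 of 8 tested (Dpp4) was called lower in each comparison with ND. Dpp4, a peptidase that enterocytes also carry, made most of that difference, at 44.2 to 127.0 FPKM in HLJDD and 44.2 to 87.6 FPKM in HFD, against 182.5 to 193.8 FPKM in ND. The other 9 summed to 27.5 to 63.6 FPKM in HLJDD, 24.98 to 92.1 FPKM in HFD and 48.4 to 104.0 FPKM in ND, so that the groups overlapped. The 8 mesothelium markers summed to 26.4 to 43.9 FPKM in HLJDD and 16.8 to 43.9 FPKM in HFD, against 40.3 to 55.6 FPKM in ND, with 1 of 5 tested (Upk1b) called lower in each comparison with ND. Without ND replicate 1, and likewise without ND replicate 2, the HLJDD calls of Dpp4 and Upk1b were lost (limma adjusted p = 0.0964 and 0.0549 without replicate 1). The 9 skeletal muscle markers summed to 17.5 to 20.2 FPKM in HLJDD, 13.3 to 16.9 FPKM in HFD and 17.8 to 27.99 FPKM in ND, and 1 of 4 tested (Acta1) was called lower in HFD over ND (log2 change -1.21, limma adjusted p = 0.0234). That call was lost without ND replicate 2 (limma adjusted p = 0.0934), without ND replicate 3 (0.0832), with no filter (0.0671), with median-ratio scaling (0.0894) and with the replicate block (0.0509). The 8 B follicle markers summed to 3.88 to 111.7 FPKM in HLJDD, 1.77 to 206.9 FPKM in HFD and 1.64 to 3.49 FPKM in ND. No marker read was at 0 in all libraries. The part of these cells in the 10 genes' results was not tested.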

How the data were processed

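RNA from mouse small intestine was sequenced in 11 libraries, grouped by their titles (HLJDD n = 4, HFD n = 4, ND n = 3). The authors deposited FPKM values, 1 per gene symbol and library, and per the submitters' processing notes they used fastp, HISAT2, HTSeq and R 3.2.0 with the mm10 genome. The annotation, the strand setting and the other versions are not stated in these sources, so reads of overlapping genes may be merged. Each gene's FPKM values were whole multiples of what 1 read is worth. Whole reads came back for 24294 of 24294 symbols (within 0.05 reads), which gave the depth, the exact Poisson intervals (95%, counting error only) and a limma-voom alternative.

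Genes that reached 1 FPKM in 3 or more libraries were tested with limma (3.58.1, R 4.3.3) on log2(FPKM + 1). The test was two-sided and had a variance trend, 1 fit for all libraries, no covariate and Benjamini-Hochberg adjustment over all 10764 genes, and the script was tested on simulated data. The 10 genes and all lists were chosen with earlier results of these data known. The text names all 10 genes, up to 4 called genes of each other list by adjusted p, and genes among the 10 most like them; some results that this rule names are not reported here. Gene positions and promoter windows come from RefSeq (GRCm38.p6, the assembly of mm10). Alternatives changed the pseudocount (0.1), the filter (none, or a mean of at least 5 FPKM), the scaling (equal sums, median ratio), the libraries fitted, a replicate block and limma-voom. Those for genes outside the 10 were added after seeing the data.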

Additional observations from a re-analysis of the deposited data

Results flagged for a closer look

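Lipe in HLJDD had 1 library apart from the others. Replicate 2 stood at 19.8 FPKM, and the next lowest library at 29.2 FPKM, a gap of 0.865 of the group's range. Of 20 groups of 4 libraries examined (10 genes in HLJDD and HFD) this was the 1 set apart, and chance alone sets apart about 1 in 20. The same library had the highest mitochondrial share, 40.7%, and the part of that share in the value was not tested.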

How the results depend on the processing

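Of the 6 calls in HLJDD over ND, those of Adipoq, Lep, Retn, Plin1 and Lpl held in every alternative that tested them, and Car3 was lost in 12 of 20. The number of the 10 genes called was 5 to 7 over the fits that left out 1 library, and 3 of 6 tested with a mean of at least 5 FPKM, where fewer genes were tested. It was 8 with median-ratio scaling, and 8 without the 2 libraries of highest mitochondrial share. In HFD over ND it was 0, but 1 (Lep) with a pseudocount of 0.1, with 2 groups only and with limma-voom, 2 with median-ratio scaling (Lep and Lpl), 0 to 3 over the fits that left out 1 library, and 4 without the 2 libraries of highest mitochondrial share. In HLJDD over HFD it was 0 throughout. Reversed directions were Lipe in HFD over ND with equal sums (-0.04), and Cfd in HLJDD over ND without HLJDD replicate 2 (-0.17, in a range of -0.17 to 0.67 over the fits that left out 1 library) and without both libraries of highest mitochondrial share (-0.17). The cause of these was not tested. The fold on the log2 scale of low genes depends on the scale, and Lep in HLJDD over ND ran from 1.69 to 5.75.

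Over all genes, 1786 were called in HFD over ND (545 higher, 1241 lower) and 1279 in HLJDD over ND (441 higher, 838 lower). Median-ratio scaling gave 1248 higher and 1228 lower in HFD over ND, and 927 higher and 988 lower in HLJDD over ND, and moved the median of all genes to near 0 in both. Leaving out 1 library gave 617 to 3314 calls in HFD over ND, 0 to 1 in HLJDD over HFD and 435 to 1695 in HLJDD over ND. Without the 2 libraries of highest mitochondrial share there were 3349 calls in HFD over ND, 1 in HLJDD over HFD and 2556 in HLJDD over ND. Single libraries that moved a count by over 1.5 times were ND replicate 1 (617 in HFD over ND, 435 in HLJDD over ND), ND replicate 2 (638 and 438), HLJDD replicate 2 (3314 in HFD over ND), HFD replicate 3 (1189 in HFD over ND), and HLJDD replicates 1 and 4 (802 and 677 in HLJDD over ND). With the replicate number as a block there were 1080 calls in HFD over ND and 724 in HLJDD over ND, and the same numbers of the 10 genes (0 and 6). Whether the labels' numbers pair the libraries cannot be decided from deviations within such small groups. The correlations of same-numbered deviations were -0.093, 0.044 and -0.047 for HFD with ND and -0.185 to 0.366 for HLJDD with HFD. They were -0.027, -0.013 and -0.219 for HLJDD with ND. Depth limits Lep and Plin1 in the libraries with few reads.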

Other observations

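Relatives of the 10 genes outside fat cells were called in the comparisons with ND. Of 7 tested carbonic anhydrase genes outside the 10, Car2 alone was called, at 16.6 ± 8.19 FPKM in HLJDD, 21.7 ± 3.05 FPKM in HFD and 2.38 ± 1.64 FPKM in ND (SD, n = 4, 4 and 3), a log2 change over ND of 2.36 in HLJDD (limma adjusted p = 0.00227) and 2.84 in HFD (limma adjusted p = 0.000675). Of 4 tested fatty acid binding proteins outside the 10, Fabp1, the enterocyte carrier of the upper gut, was higher than in ND in both groups (2.73 in HLJDD, limma adjusted p = 0.00764, and 2.96 in HFD, limma adjusted p = 0.00412). Fabp6, which carries bile acids in ileal cells, was at 0.213 to 2.27 FPKM in HLJDD and 1.26 to 4.31 FPKM in HFD, against 397 to 9821 FPKM in ND. Fabp5 stood at 7.03 ± 2.06 FPKM in HLJDD, 7.89 ± 2.07 FPKM in HFD and 4.54 ± 0.743 FPKM in ND and was not called.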
